A study of Mus musculus with 18 samples.

Results

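The reactive astrocyte genes described here are 31 genes of a published panel that astrocytes of the mouse brain switch on after injury, 31 of the 27997 genes in the deposited expression table. They fall into 10 pan-reactive genes, 9 A1 genes and 12 A2 genes, and were taken by name from a list that was drawn up with earlier results of these data known. All 31 were in the table. RNA was measured in adherent cultures of neural stem cells (NSCs) and in the astrocytes made from them with the growth factor BMP4, in 3 cell lines with 3 libraries per line and fate, 18 libraries in all. The comparisons ask whether a plain BMP4 differentiation, with no added injury or immune signal, moves these genes, and whether DNGR-1-traced and hippocampal cells differ in this.

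DNGR-1, the product of Clec9a, is a receptor of dendritic cells, and a Cre recombinase in that locus is used to mark cells that have expressed it, though not each of them, together with their progeny. The tdTomato line (genotype DNGR-1 +/- Tom+/-) came from Clec9a Cre mice with a Cre-switched tdTomato in the Rosa locus, from spinal cord neurospheres sorted for tdTomato. The EYFP line (genotype DNGR-1 +/- EYFP+/-) came from the same tracer with EYFP as the reporter. The hippocampal line (labelled DNGR-1+/+) was grown from the hippocampus of mice with a Glast Cre, a Cre-switched EYFP and a floxed Huwe1, and carries no DNGR-1 tracer. NSCs were kept in EGF and bFGF and taken on day 4, and astrocytes were kept with BMP4 at 20 ng/ml and taken on day 6 with both growth factors withdrawn, so BMP4, withdrawal and time cannot be told apart. The mice were adults backcrossed to C57BL/6j. The 3 libraries of a group were passages of the same line, so the p-values measure the spread between passages of 1 line, not between animals, and region, genotype, reporter and line cannot be told apart. Which replicate number is which passage is not stated. Huwe1 RNA lay between 12.97 and 13.38 in all 18 libraries and did not pass the test between traced and hippocampal cells in NSCs (log2 difference 0.04 ± 0.0513 SE, adjusted p = 0.59) or in astrocytes (0.02 ± 0.0513, adjusted p = 0.8).

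Reactive astrocytes are the state that astrocytes of the brain and spinal cord enter after trauma, stroke, infection or inflammation. Pan-reactive genes rise after both ischemia and systemic inflammation, A1 genes rise more after inflammation and hold many interferon and complement genes, and A2 genes rise more after ischemia. In culture, TNF, interleukin-1 alpha and the complement protein C1q from microglia are known inducers of A1 genes, and cytokines of the gp130 family that act through STAT3 are known inducers of astrocyte reactivity. BMP4 acts through SMAD proteins and their ID targets and is in common use to turn NSCs into astrocytes.

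The deposited values are on a log2 scale on which weak genes are pulled towards their own mean over the libraries, so that changes of weak genes are understated and levels of different genes are not comparable. A gene was tested where 3 or more libraries reached 3.32, a linear value of 10, and 15448 genes were. Of the 31 members, 27 passed. Amigo2 (A1), Tgm1, Ptx3 and Slc10a6 (all A2) stayed below that level in every library and got no test. S1pr3, Aspg and Srgn passed only because of the hippocampal astrocytes, which fixes the direction of their hippocampal change and of their difference from the traced astrocytes, and 10 members were below the level in every NSC library. B3gnt5 passed only because of traced libraries, which leads it to a higher value in traced than in hippocampal cells. Of the 27 tested, 8 (Lcn2, Steap4, S1pr3, Hspb1, Aspg, Timp1, Serping1 and Srgn) were at the level in fewer than 3 NSC libraries and so passed only because of astrocyte libraries, which leads them to a rise in at least 1 line, and counts of rises are given with and without these 8. All tests come from 1 limma fit over the 6 groups, with p-values adjusted over the 15448 genes by the Benjamini-Hochberg method. In bulk RNA, fewer cells that express a gene and less RNA per cell cannot be told apart.

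The astrocyte markers of the labels were present, and the NSC markers were split. The 9 astrocyte markers fixed for this check were all above the filter level in every library, and the sum of their linear values was 38522 to 80476 in NSCs, 162324 to 219965 in traced astrocytes and 241908 to 270881 in hippocampal astrocytes. The sum of the 7 NSC markers was 55325 to 65581 in NSCs, 17960 to 20329 in traced astrocytes and 25807 to 28905 in hippocampal astrocytes, but its members went both ways. Mki67, Top2a and Olig2 fell and Sox2 (1.35, 0.88 and 0.95) and Prom1 rose in each line, and Nes fell in the traced lines (-3.18 and -3.05) with -0.22 (adjusted p = 0.063) in the hippocampal line, so that it was lower in traced than in hippocampal astrocytes (-2.67). Of 7 microglia and macrophage markers in the table, 1 or 2 were above the level in any group, and their sum was 65.1 to 74.4 in hippocampal astrocytes, 89.6 to 104 in tdTomato and 74.5 to 87 in EYFP astrocytes, with Aif1, Itgam and Ptprc near the bottom of the scale in all groups. Its members went both ways, since Tmem119 was higher in traced astrocytes (2.70) while P2ry12, not tested, was at 3.24 to 3.57 in hippocampal, 1.93 to 2.70 in tdTomato and 1.82 to 2.13 in EYFP astrocytes. Neuron markers (4 in the table) summed to 328 to 442 in hippocampal and 318 to 442 in traced astrocytes, but of the 3 tested Rbfox3 (1.34) and Syt1 (1.24) were higher and Tubb3 (-0.43) lower in traced astrocytes. Endothelial markers summed to 11.4 to 18.1 and fibroblast and pericyte markers to 73.5 to 146 in astrocytes, and neither list was highest in the hippocampal line. The ependymal list summed to 4566 to 5131 in hippocampal and 2066 to 2624 in traced astrocytes, and the oligodendrocyte list to 258 to 307 and 773 to 1298. The sums of the astrocyte, NSC, microglia and macrophage, ependymal and oligodendrocyte lists thus did not overlap between hippocampal and traced astrocytes, and their part in the results below was not tested. Replicate 1 was the highest astrocyte library for 24 of the 27 tested members in the hippocampal, 18 in the tdTomato and 16 in the EYFP line, by a median of 0.32, 0.27 and 0.14 over the other 2 libraries.

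Promoters of 5 members that moved are shown here so that the values below can be read beside the sequence. RefSeq promoters (build GRCm38.p6) were at hand for 25 of the 31 genes, and the 5 shown belong to the members with the largest rise and the largest fall over the 3 lines in each class, where a class had a fall, among members with a sequence in the table. Iigp1 (A1) and Clcf1 (A2), which had larger rises than the members shown, had no entry. Each is the 250 bases before a RefSeq transcript start of the gene, 5′ to 3′ on the gene's strand. The whole window for Osmr and Fkbp5, and its last bases for Gbp2 and B3gnt5, lie inside the gene as annotated from its outermost start. Capitals mark matches to 1 of 6 motifs searched on both strands: STAT (TTCNNNGAA), interferon response (TTTC, 2 bases of any kind, TTTC), NF-kB (GGG, 2 bases of any kind, TTTCC), BMP-SMAD (GGCGCC), serum response (CC, any base, TAT, 2 bases of any kind, GG) and AP-1 (TGANTCA).
Osmr, pan, rise (chr15:6874314-6874563, minus strand): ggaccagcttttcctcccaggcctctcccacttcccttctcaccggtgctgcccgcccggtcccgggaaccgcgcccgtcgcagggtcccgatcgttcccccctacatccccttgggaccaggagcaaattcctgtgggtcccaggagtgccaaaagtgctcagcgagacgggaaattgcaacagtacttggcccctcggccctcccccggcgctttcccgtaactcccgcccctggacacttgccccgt
Gbp2, A1, rise (chr3:142620413-142620662, plus strand): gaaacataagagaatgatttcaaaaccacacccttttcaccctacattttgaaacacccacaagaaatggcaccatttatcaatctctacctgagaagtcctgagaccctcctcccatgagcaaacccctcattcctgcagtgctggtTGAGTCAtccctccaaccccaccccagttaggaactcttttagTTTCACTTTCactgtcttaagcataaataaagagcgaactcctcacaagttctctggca
Fkbp5, A1, fall (chr17:28486150-28486399, minus strand): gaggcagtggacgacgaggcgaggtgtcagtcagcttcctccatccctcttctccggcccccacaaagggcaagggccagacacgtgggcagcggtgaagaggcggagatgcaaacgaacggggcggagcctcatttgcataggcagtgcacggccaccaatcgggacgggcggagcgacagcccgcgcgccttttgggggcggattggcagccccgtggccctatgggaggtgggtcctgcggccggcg
Tm4sf1, A2, rise (chr3:57301989-57302238, minus strand): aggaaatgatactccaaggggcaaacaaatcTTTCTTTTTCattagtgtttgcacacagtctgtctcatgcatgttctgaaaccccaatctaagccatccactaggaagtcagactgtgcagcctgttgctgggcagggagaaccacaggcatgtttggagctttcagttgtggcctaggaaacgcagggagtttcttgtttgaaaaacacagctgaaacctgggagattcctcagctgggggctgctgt
B3gnt5, A2, fall (chr16:19759984-19760233, plus strand): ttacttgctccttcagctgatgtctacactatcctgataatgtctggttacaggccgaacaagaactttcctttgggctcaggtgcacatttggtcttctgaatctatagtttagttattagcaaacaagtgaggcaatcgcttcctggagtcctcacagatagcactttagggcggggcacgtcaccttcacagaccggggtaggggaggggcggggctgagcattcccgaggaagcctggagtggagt
The Gbp2 promoter held an interferon response match 59 to 50 bases and an AP-1 match 102 to 96 bases before its RefSeq start. The interferon response match lies just inside the gene as annotated. The Tm4sf1 promoter held an interferon response match 219 to 210 bases before its start. The promoters of Osmr, Fkbp5 and B3gnt5 held no match to these 6 motifs in this window.

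The interferon response motif was in the promoters of 6 of the 25 members, against 2.98% of all 32851 promoters in the table. Here and for the other motifs, a member counted if any of its promoters held a match, while the shares count single promoters. The units of the counts and the shares thus differ. The other 4 matches are shown with 10 bases, or as many as the window held, on either side and the match in capitals, and were chosen after the search. Those of Srgn, H2-T23 and Tgm1 lie inside the gene as annotated from its outermost start.
Cxcl10, pan (chr5:92349083-92349112, minus strand): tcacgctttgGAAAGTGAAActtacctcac
Srgn, A1 (chr10:62507958-62507987, minus strand): gagctttttgGAAAAAGAAAaaataataac
H2-T23, A1 (chr17:36032806-36032835, minus strand): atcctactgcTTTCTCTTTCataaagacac
Tgm1, A2 (chr14:55713715-55713742, minus strand): caaacgccTTTCCTTTTCacttcagcct
STAT matches were in 4 of the 25 members (Emp1, Sphk1, Steap4 and Tgm1) against 7.02% of all promoters, AP-1 matches in 5 (Cp, Cxcl10, Emp1, Gbp2 and Sphk1) against 6.75%, BMP-SMAD matches in 3 (Amigo2, Fbln5 and Ptgs2) against 9.59%, an NF-kB match in 1 (Steap4) against 1.41%, and serum response matches in 0 against 1.38%. A match says that the letters are there, not that a factor binds.

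Many members rose with BMP4 differentiation, most often in the hippocampal line. Of the 27 members tested, 17 rose in each of the 3 lines, among all genes tested 28.1% did so, and 1, Fkbp5, fell in each line, as did 27.8% of all genes. In the tdTomato line 18 members rose and 4 fell (39.9% and 38.5% of all genes), in the EYFP line 18 rose and 6 fell (38.2% and 37%), and in the hippocampal line 22 rose and 1 fell (39% and 37.3%). On the log2 scale, the tested members had a median change of 1.08 (tdTomato line), 0.95 (EYFP line) and 3.88 (hippocampal line), against 0.01, 0.01 and 0.02 over all genes tested. A rise of at least 1, which is a doubling on this scale, was called for 14 tdTomato, 13 EYFP and 22 hippocampal line members, and for 15.4%, 14% and 15.4% of all genes. Over the 19 members at the filter level in 3 or more NSC libraries, 11, 11 and 14 rose in the tdTomato, EYFP and hippocampal line, against 37.6%, 36.2% and 36.9% of the 14541 genes at that level in as many NSC libraries, and 10 rose in each line, against 26.5%. Their median changes were 0.92, 0.44 and 2.70.

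**Figure D1:**
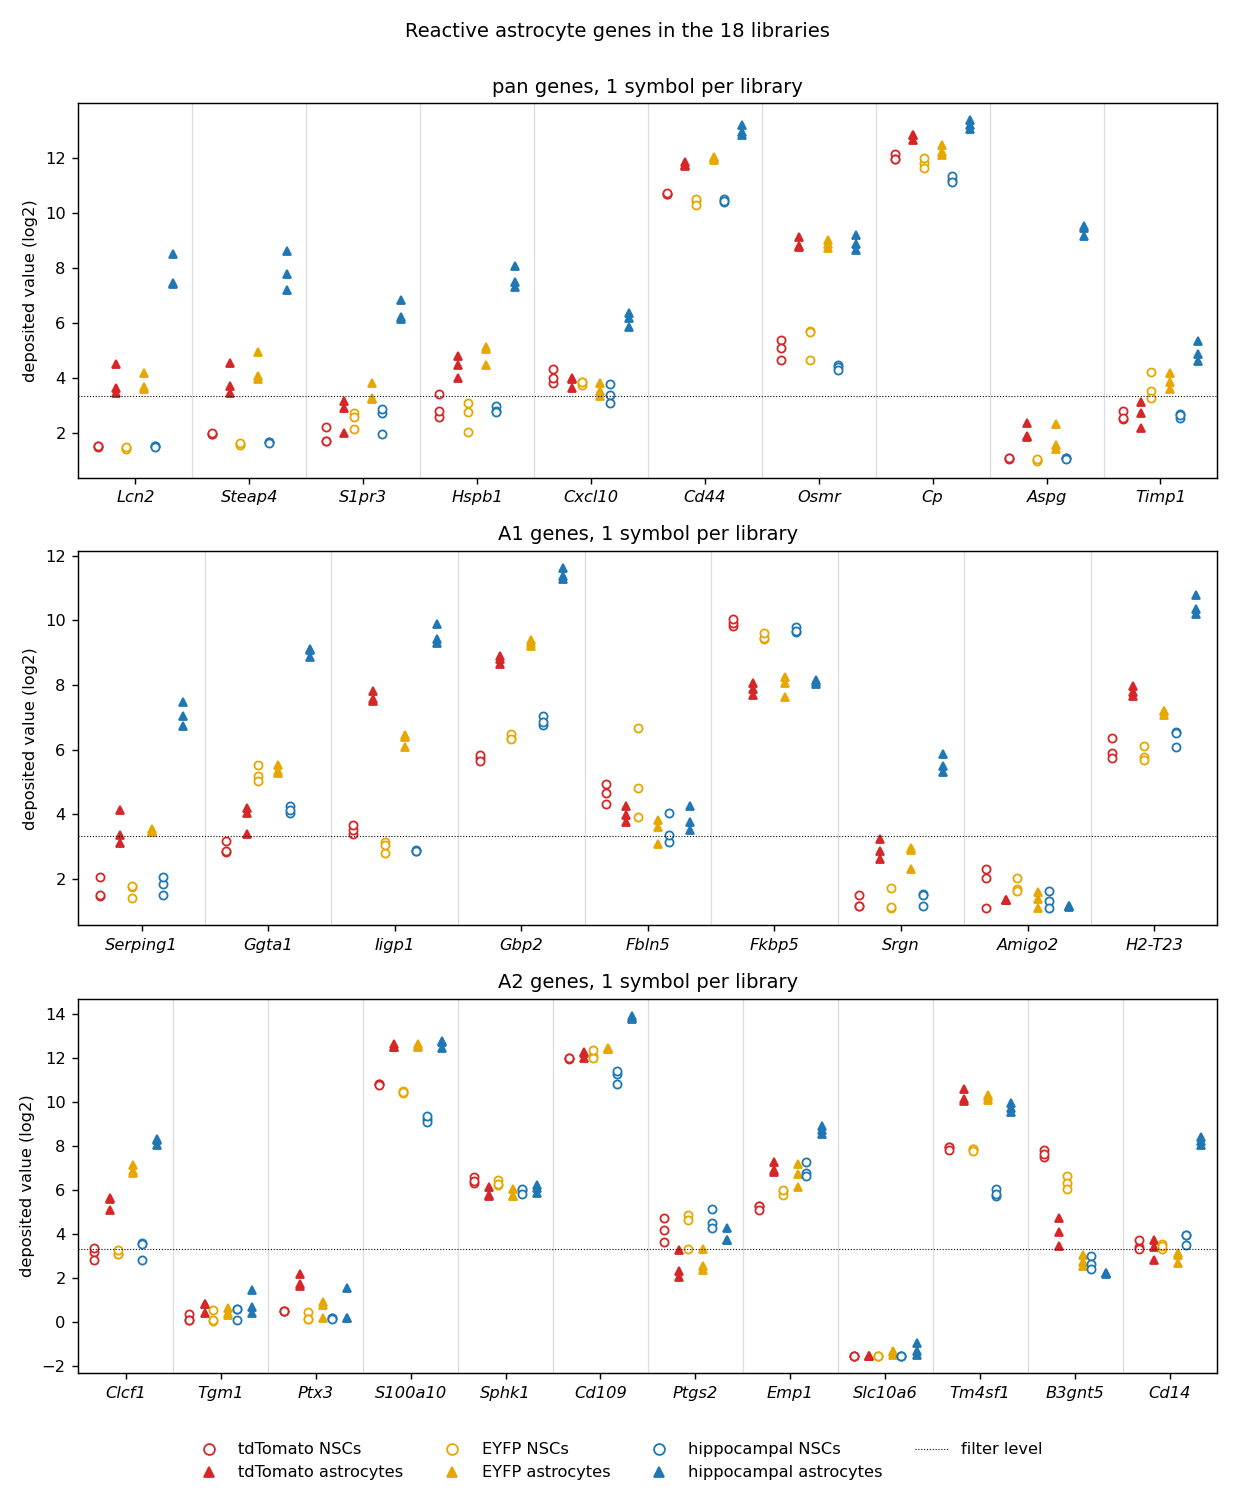
Deposited log2 value (vertical axis) of each of the 31 members in each of the 18 libraries, in a panel each for pan, A1 and A2 genes. Open circles are NSC and filled triangles astrocyte libraries, red is the tdTomato, yellow the EYFP and blue the hippocampal line, and the dotted line is the filter level of 3.32. For 19 of the 31 members the 3 blue triangles lie above all other symbols of that gene.

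By class, all 10 pan genes rose in the hippocampal line and 8 of 10 in each traced line, with medians of 1.01, 1.26 and 4.20 in the tdTomato, EYFP and hippocampal line. Of the 8 A1 genes tested, 6, 5 and 6 rose in the tdTomato, EYFP and hippocampal line, with medians of 1.72, 1.36 and 4.35. Of the 9 A2 genes tested, 4 rose and 3 fell in the tdTomato line, 5 rose and 4 fell in the EYFP line, and 6 rose and 0 fell in the hippocampal line, with medians of 0.17, 0.28 and 2.65. Over the genes at the filter level in 3 or more NSC libraries, 3, 3 and 4 of 4 pan genes rose, with medians of 0.92, 1.01 and 2.63, and 4, 3 and 4 of 6 A1 genes, with medians of 1.36, 0.73 and 4.30. The 9 tested A2 genes were all at that level. The values that follow are given in the order replicate 1, 2 and 3 within a group, and changes in the order tdTomato, EYFP and hippocampal line, as the astrocyte minus the NSC mean on the log2 scale with the standard error (SE) that the lines share.

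**Figure D2:**
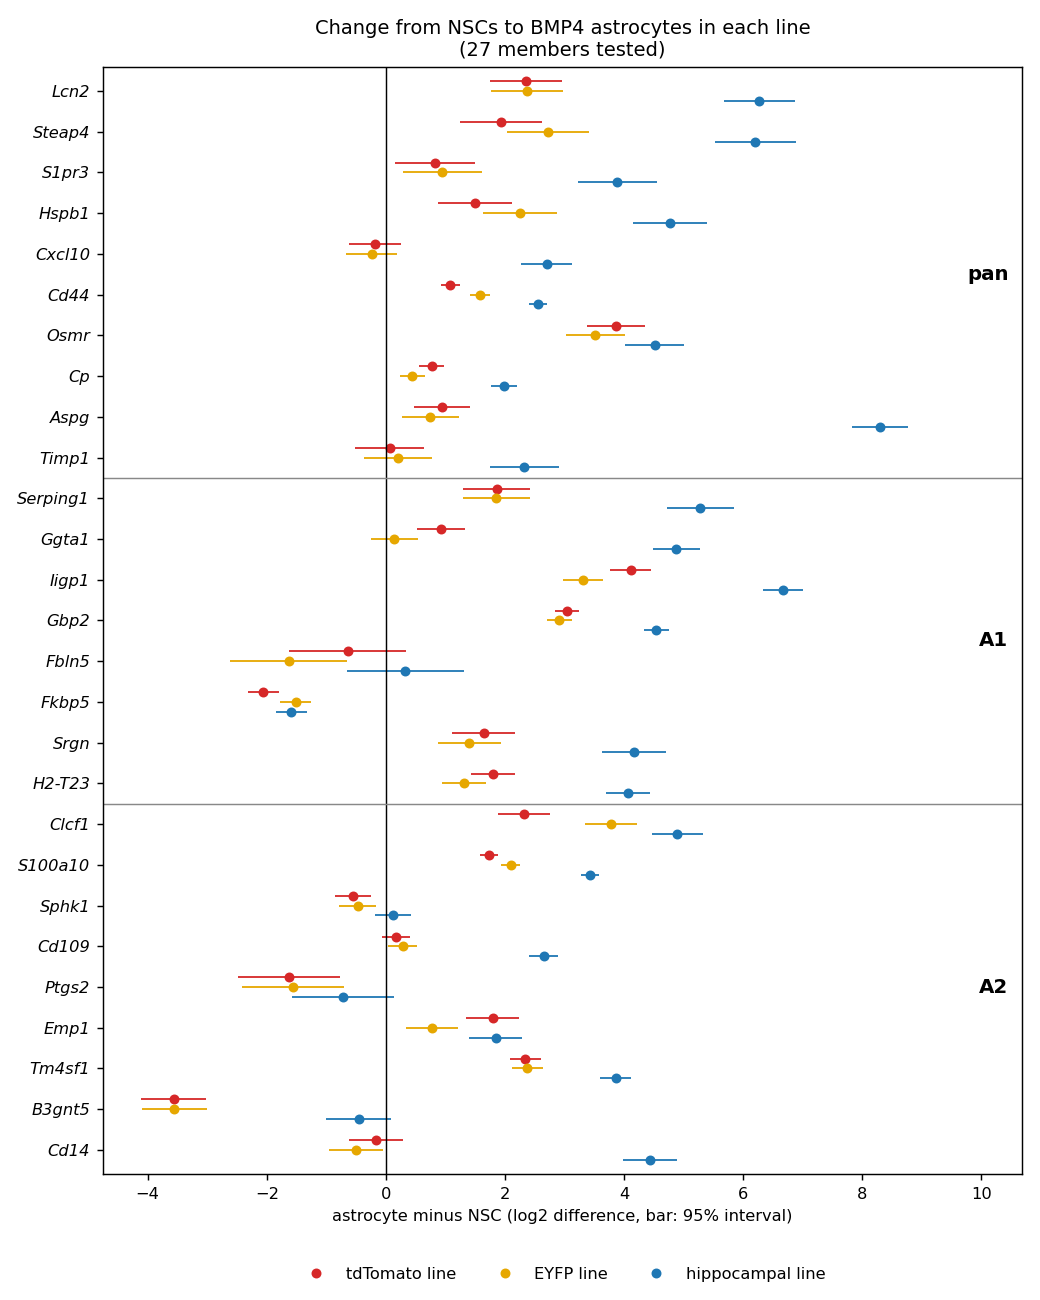
Change from NSCs to astrocytes (horizontal axis, log2 difference) of the 27 members tested, in the tdTomato (red), EYFP (yellow) and hippocampal line (blue). Points are the fitted difference and bars its 95% interval. The blue point lies to the right of both others for 26 of the 27 members, Fkbp5 being the exception.

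Among the pan genes that are secreted, lipocalin 2 and ceruloplasmin rose in each line. Lcn2, a carrier of iron-binding siderophores and a leading marker of reactive astrocytes, lay at 1.51, 1.50 and 1.53 in tdTomato, 1.45, 1.43 and 1.48 in EYFP and 1.52, 1.53 and 1.50 in hippocampal NSCs and at 4.49, 3.46 and 3.64 in tdTomato, 4.19, 3.60 and 3.68 in EYFP and 8.51, 7.44 and 7.41 in hippocampal astrocytes. All 9 NSC libraries lay within 0.10 of each other and under the filter level, every astrocyte library lay above them, and the 3 hippocampal astrocyte libraries stood above all traced ones. Its change was 2.35, 2.37 and 6.27 (SE 0.285, adjusted p = 6e-07, 6.1e-07 and 7.9e-13). Cp, the copper-carrying ferroxidase ceruloplasmin, lay at 12.12, 11.96 and 11.95 in tdTomato, 11.79, 11.99 and 11.63 in EYFP and 11.18, 11.33 and 11.13 in hippocampal NSCs and at 12.84, 12.84 and 12.64 in tdTomato, 12.19, 12.46 and 12.09 in EYFP and 13.35, 13.05 and 13.20 in hippocampal astrocytes. Its change was 0.77, 0.44 and 1.99 (SE 0.102, adjusted p = 2e-06, 0.00074 and 4.6e-12), and only the hippocampal line moved from the lowest NSC values to the highest astrocyte values.

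The chemokine Cxcl10, which draws T cells through CXCR3, and Timp1, an inhibitor of matrix metalloproteinases, rose only where the line was hippocampal. Cxcl10 lay at 3.82, 4.33 and 3.99 in tdTomato, 3.74, 3.83 and 3.85 in EYFP and 3.78, 3.37 and 3.10 in hippocampal NSCs and at 3.99, 3.97 and 3.62 in tdTomato, 3.53, 3.82 and 3.34 in EYFP and 6.34, 5.83 and 6.18 in hippocampal astrocytes. The traced libraries of both fates overlapped, and the hippocampal astrocytes stood above all of them. Its change was -0.19, -0.24 and 2.70 (SE 0.207, adjusted p = 0.42, 0.3 and 1.3e-09), and under quantile normalization both traced changes passed as falls (-0.50 and -0.53, adjusted p = 0.033 and 0.028). Timp1 lay at 2.80, 2.49 and 2.53 in tdTomato, 3.51, 3.28 and 4.22 in EYFP and 2.68, 2.53 and 2.65 in hippocampal NSCs and at 3.12, 2.73 and 2.16 in tdTomato, 4.17, 3.60 and 3.86 in EYFP and 5.34, 4.87 and 4.62 in hippocampal astrocytes, so that EYFP cells were higher than tdTomato cells in both fates. Its change was 0.06, 0.21 and 2.33 (SE 0.273, adjusted p = 0.85, 0.51 and 4.2e-07). The difference between the traced and the hippocampal change was itself past the threshold for Cxcl10 (-2.91 ± 0.253, adjusted p = 5.7e-08) and Timp1 (-2.19 ± 0.335, adjusted p = 3.8e-05).

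Among the pan genes of the cell surface, Osmr rose by more than 3 units in each line. Osmr, the subunit that lets gp130 respond to oncostatin M, lay at 5.36, 5.08 and 4.64 in tdTomato, 5.70, 5.67 and 4.65 in EYFP and 4.48, 4.40 and 4.27 in hippocampal NSCs and at 9.11, 8.77 and 8.78 in tdTomato, 8.99, 8.88 and 8.70 in EYFP and 9.20, 8.63 and 8.87 in hippocampal astrocytes. The astrocyte libraries of the 3 lines overlapped, and the hippocampal NSCs lay below the traced NSCs. Its change was 3.86, 3.52 and 4.51 (SE 0.234, adjusted p = 4.8e-11, 2e-10 and 5.1e-12). Cd44, the hyaluronan receptor, lay at 10.67, 10.68 and 10.70 in tdTomato, 10.41, 10.51 and 10.27 in EYFP and 10.50, 10.38 and 10.41 in hippocampal NSCs and at 11.75, 11.68 and 11.84 in tdTomato, 11.97, 11.91 and 12.04 in EYFP and 13.20, 12.84 and 12.92 in hippocampal astrocytes. It was well above the filter level in every library, the hippocampal astrocytes were the highest, and its change was 1.08, 1.58 and 2.56 (SE 0.0754, adjusted p = 3.6e-10, 1.9e-12 and 2.4e-15).

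S1pr3, a receptor for sphingosine-1-phosphate, and Steap4, a membrane reductase of iron and copper, rose most in hippocampal cells. S1pr3 lay at 1.70, 1.69 and 2.20 in tdTomato, 2.74, 2.58 and 2.15 in EYFP and 2.71, 2.85 and 1.95 in hippocampal NSCs and at 2.01, 2.90 and 3.15 in tdTomato, 3.82, 3.22 and 3.28 in EYFP and 6.82, 6.20 and 6.14 in hippocampal astrocytes. The tdTomato NSC and astrocyte libraries overlapped and none reached the filter level, while the EYFP astrocytes lay above the EYFP NSCs. Its change was 0.82, 0.95 and 3.88 (SE 0.315, adjusted p = 0.024, 0.012 and 2.9e-09), of which the tdTomato call was lost without tdTomato NSC replicate 1 or 2 or tdTomato astrocyte replicate 2 or 3 (adjusted p = 0.072 to 0.12), and the EYFP call without EYFP NSC replicate 3 or EYFP astrocyte replicate 1 (0.056 and 0.06). Under quantile normalization neither traced call held (0.28 and 0.088), and with a pseudocount of 10 the tdTomato call was lost (0.1). Steap4 lay at 1.96, 1.95 and 1.99 in tdTomato, 1.59, 1.57 and 1.62 in EYFP and 1.66, 1.66 and 1.63 in hippocampal NSCs and at 4.55, 3.45 and 3.71 in tdTomato, 4.93, 3.94 and 4.08 in EYFP and 8.60, 7.79 and 7.18 in hippocampal astrocytes. No NSC library reached the filter level, all astrocyte libraries did, and the change was 1.93, 2.72 and 6.21 (SE 0.324, adjusted p = 3e-05, 5.3e-07 and 5.7e-12).

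Inside the cell, the small heat shock protein Hspb1 and the asparaginase gene Aspg also rose in each line. Hspb1 lay at 3.43, 2.58 and 2.81 in tdTomato, 2.04, 3.10 and 2.75 in EYFP and 2.96, 2.81 and 2.76 in hippocampal NSCs and at 4.80, 4.48 and 4.01 in tdTomato, 5.13, 5.03 and 4.48 in EYFP and 8.05, 7.48 and 7.30 in hippocampal astrocytes. The astrocyte libraries were above the NSC libraries in each line, and the change was 1.49, 2.25 and 4.77 (SE 0.294, adjusted p = 0.00016, 1.7e-06 and 6e-11). Of the 75-base stretches of the Hspb1 transcripts, 46.4% also occur in the pseudogene Hsp25-ps1, so its reads can have been split between them. The sources differ by 1 base on the read length, and 75 is the shorter. Aspg lay at 1.07, 1.06 and 1.10 in tdTomato, 1.01, 0.99 and 1.05 in EYFP and 1.09, 1.09 and 1.06 in hippocampal NSCs and at 1.87, 1.86 and 2.35 in tdTomato, 1.41, 2.32 and 1.57 in EYFP and 9.46, 9.16 and 9.52 in hippocampal astrocytes. It was close to the bottom of its scale in all 15 other libraries and above 9 in the 3 hippocampal astrocyte libraries. Its change was 0.95, 0.75 and 8.30 (SE 0.224, adjusted p = 0.00091, 0.0061 and 7.2e-16), and the EYFP change was 0.47 (adjusted p = 0.05, still under the threshold before rounding) without EYFP astrocyte replicate 2, against 0.75 with it. That call was lost under quantile normalization and with a pseudocount of 10 (adjusted p = 0.071 and 0.13).

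Among the A1 genes, the interferon-responsive Iigp1, Gbp2 and H2-T23 rose in every line. Iigp1 (on chromosome 18), an immunity-related GTPase, lay at 3.38, 3.50 and 3.66 in tdTomato, 2.81, 3.15 and 3.04 in EYFP and 2.87, 2.88 and 2.85 in hippocampal NSCs and at 7.50, 7.82 and 7.57 in tdTomato, 6.40, 6.46 and 6.07 in EYFP and 9.89, 9.44 and 9.29 in hippocampal astrocytes. The astrocytes were ordered EYFP, tdTomato, hippocampal with no overlap, and the change was 4.11, 3.31 and 6.67 (SE 0.161, adjusted p = 1.1e-13, 2.5e-12 and 1.7e-16). Gbp2, a guanylate-binding protein, whose promoter with its interferon response match is printed above, lay at 5.73, 5.84 and 5.65 in tdTomato, 6.35, 6.48 and 6.34 in EYFP and 6.77, 7.04 and 6.86 in hippocampal NSCs and at 8.82, 8.64 and 8.91 in tdTomato, 9.41, 9.20 and 9.31 in EYFP and 11.62, 11.38 and 11.29 in hippocampal astrocytes. In both fates the order was tdTomato, EYFP, hippocampal with no overlap, and the change was 3.05, 2.91 and 4.54 (SE 0.0977, adjusted p = 7.7e-15, 1.5e-14 and 4.6e-17). H2-T23, a non-classical class I molecule that presents peptides to natural killer cell receptors, lay at 5.91, 6.35 and 5.75 in tdTomato, 5.78, 5.68 and 6.11 in EYFP and 6.08, 6.53 and 6.52 in hippocampal NSCs and at 7.98, 7.77 and 7.67 in tdTomato, 7.21, 7.21 and 7.08 in EYFP and 10.79, 10.35 and 10.19 in hippocampal astrocytes. Its change was 1.80, 1.31 and 4.06 (SE 0.174, adjusted p = 3.1e-08, 2e-06 and 3.5e-13), and 5.91% of its 75-base stretches occur in other genes.

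Serping1, the inhibitor of complement C1, and Srgn, a proteoglycan of secretory granules, rose from NSC levels under the filter. Serping1 lay at 1.47, 2.06 and 1.49 in tdTomato, 1.74, 1.40 and 1.78 in EYFP and 1.48, 1.83 and 2.06 in hippocampal NSCs and at 4.14, 3.12 and 3.34 in tdTomato, 3.54, 3.48 and 3.46 in EYFP and 7.47, 6.72 and 7.03 in hippocampal astrocytes. All traced astrocyte libraries lay between 3.12 and 4.14 and all hippocampal ones between 6.72 and 7.47. Its change was 1.86, 1.85 and 5.28 (SE 0.268, adjusted p = 5.3e-06, 6e-06 and 3.9e-12). Srgn lay at 1.14, 1.49 and 1.16 in tdTomato, 1.72, 1.08 and 1.12 in EYFP and 1.16, 1.52 and 1.49 in hippocampal NSCs and at 2.61, 3.23 and 2.87 in tdTomato, 2.30, 2.94 and 2.89 in EYFP and 5.50, 5.86 and 5.31 in hippocampal astrocytes, with no traced library at the filter level, and its change was 1.64, 1.40 and 4.17 (SE 0.252, adjusted p = 1.1e-05, 6.9e-05 and 4.7e-11).

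Ggta1, Fbln5 and Fkbp5 did not follow that pattern. Ggta1, which makes the alpha-galactose epitope that most mammals carry, lay at 2.83, 3.17 and 2.85 in tdTomato, 5.18, 5.04 and 5.51 in EYFP and 4.24, 4.05 and 4.13 in hippocampal NSCs and at 4.18, 3.40 and 4.04 in tdTomato, 5.34, 5.28 and 5.53 in EYFP and 9.12, 8.86 and 9.08 in hippocampal astrocytes. EYFP cells were higher than tdTomato cells in both fates, and the hippocampal astrocytes were the highest. Its change was 0.92, 0.14 and 4.88 (SE 0.187, adjusted p = 0.00022, 0.51 and 7.6e-14). Fkbp5, a co-chaperone that dampens the glucocorticoid receptor and is itself a glucocorticoid target, lay at 9.82, 9.92 and 10.06 in tdTomato, 9.43, 9.46 and 9.61 in EYFP and 9.81, 9.64 and 9.66 in hippocampal NSCs and at 8.07, 7.87 and 7.69 in tdTomato, 8.26, 8.07 and 7.63 in EYFP and 8.17, 8.11 and 8.04 in hippocampal astrocytes. The astrocyte libraries lay below the NSC libraries in each line and overlapped between the lines, and the change was -2.06, -1.52 and -1.59 (SE 0.123, adjusted p = 3.9e-11, 3.1e-09 and 1.4e-09). Nr3c1, the glucocorticoid receptor, rose in each line (0.74, 0.65 and 0.37), and Tsc22d3, another glucocorticoid target, rose in the tdTomato and hippocampal line (0.94 and 0.29) with 0.22 in the EYFP line.

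Fbln5, an elastic fibre protein, lay at 4.92, 4.66 and 4.33 in tdTomato, 4.82, 6.66 and 3.90 in EYFP and 3.13, 3.36 and 4.03 in hippocampal NSCs and at 4.25, 3.96 and 3.77 in tdTomato, 3.60, 3.81 and 3.07 in EYFP and 4.24, 3.51 and 3.75 in hippocampal astrocytes. EYFP NSC replicate 2 stood apart at 6.66, and the hippocampal libraries of the 2 fates overlapped. Its change was -0.64, -1.64 and 0.33 (SE 0.468, adjusted p = 0.22, 0.0043 and 0.54), so that only the EYFP line passed, with -0.87 (adjusted p = 0.027) when that library was left out. In a fit to the tdTomato line alone its change also passed (-0.64, adjusted p = 0.02). Amigo2, an adhesion molecule, lay between 1.08 and 2.31 in all 18 libraries and was not tested.

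Among the A2 genes, the cytokine Clcf1 and the membrane or membrane-associated proteins Tm4sf1, S100a10 and Emp1 rose in each line. Clcf1, a cytokine of the gp130 family, lay at 3.16, 2.79 and 3.33 in tdTomato, 3.09, 3.06 and 3.27 in EYFP and 3.57, 2.82 and 3.53 in hippocampal NSCs and at 5.61, 5.57 and 5.07 in tdTomato, 7.13, 6.78 and 6.85 in EYFP and 8.32, 8.26 and 8.01 in hippocampal astrocytes. The astrocytes were ordered tdTomato, EYFP, hippocampal with no overlap, and the change was 2.33, 3.78 and 4.89 (SE 0.208, adjusted p = 1.1e-08, 1.4e-11 and 3.1e-13). Of its 75-base stretches 6.05% occur in another gene.

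Tm4sf1, a tetraspanin-like protein of endothelial and tumour cells, lay at 7.96, 7.96 and 7.80 in tdTomato, 7.84, 7.86 and 7.75 in EYFP and 6.01, 5.73 and 5.82 in hippocampal NSCs and at 10.58, 10.14 and 10.04 in tdTomato, 10.30, 10.22 and 10.06 in EYFP and 9.93, 9.51 and 9.71 in hippocampal astrocytes. Traced cells were higher than hippocampal cells in NSCs by about 2 units and the astrocytes lay closer, with a change of 2.34, 2.38 and 3.86 (SE 0.123, adjusted p = 6.8e-12, 6.2e-12 and 7e-15). S100a10, the partner of annexin A2, lay at 10.82, 10.81 and 10.78 in tdTomato, 10.47, 10.41 and 10.46 in EYFP and 9.23, 9.08 and 9.35 in hippocampal NSCs and at 12.62, 12.49 and 12.51 in tdTomato, 12.63, 12.47 and 12.53 in EYFP and 12.76, 12.73 and 12.46 in hippocampal astrocytes. Its astrocyte libraries overlapped across the lines while hippocampal NSCs lay more than 1 unit below traced NSCs, and the change was 1.73, 2.09 and 3.43 (SE 0.072, adjusted p = 2.6e-13, 2e-14 and 3.3e-17). Anxa2 itself rose by 1.55, 1.46 and 2.13 and was higher in traced than in hippocampal cells in both fates (2.56 in NSCs and 1.93 in astrocytes). Emp1, an epithelial membrane protein, lay at 5.27, 5.26 and 5.07 in tdTomato, 5.95, 5.74 and 5.99 in EYFP and 6.77, 6.60 and 7.24 in hippocampal NSCs and at 7.28, 6.81 and 6.89 in tdTomato, 7.15, 6.71 and 6.14 in EYFP and 8.91, 8.51 and 8.70 in hippocampal astrocytes, hippocampal cells being the highest in both fates, and its change was 1.79, 0.77 and 1.84 (SE 0.21, adjusted p = 3.9e-07, 0.0029 and 2.8e-07).

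Cd14 and Cd109, both anchored in the membrane by a lipid, rose by more than 2 units in the hippocampal line and by far less, or not at all, in the traced lines. Cd14 (on chromosome 18), which hands bacterial lipopolysaccharide to TLR4, lay at 3.40, 3.29 and 3.71 in tdTomato, 3.32, 3.55 and 3.46 in EYFP and 3.92, 3.93 and 3.48 in hippocampal NSCs and at 3.69, 2.81 and 3.40 in tdTomato, 2.68, 3.11 and 3.02 in EYFP and 8.41, 8.20 and 8.04 in hippocampal astrocytes. Hippocampal astrocytes stood more than 4 units above every other library. Its change was -0.17, -0.51 and 4.44 (SE 0.216, adjusted p = 0.49, 0.042 and 2.1e-12), and the EYFP fall was lost without EYFP NSC replicate 2 or 3, EYFP astrocyte replicate 1 or 3 or hippocampal astrocyte replicate 2 (adjusted p = 0.051 to 0.16), and with no filter, a filter of 100, median centring or a pseudocount of 10 (0.054 to 0.083). Under quantile normalization the tdTomato change of Cd14 passed as a fall (-0.52, adjusted p = 0.042). Tlr4 reached the filter level in the hippocampal astrocytes alone, which fixes the direction of its change there, and the co-receptor Ly96 rose by 0.46, 0.76 and 0.66.

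Cd109, a co-receptor that dampens TGF-beta signals, lay at 11.99, 11.94 and 11.99 in tdTomato, 12.08, 11.97 and 12.33 in EYFP and 11.27, 10.81 and 11.41 in hippocampal NSCs and at 12.24, 12.00 and 12.20 in tdTomato, 12.45, 12.40 and 12.38 in EYFP and 13.90, 13.75 and 13.79 in hippocampal astrocytes. Its change was 0.17, 0.28 and 2.65 (SE 0.114, adjusted p = 0.18, 0.034 and 3.9e-13), and the EYFP call was lost without EYFP NSC replicate 1 or 2 or any EYFP astrocyte library (adjusted p = 0.054 to 0.15), and under 4 other settings (0.051 to 0.061). The tdTomato change passed under median centring (0.26, adjusted p = 0.043) and in a fit to that line alone (0.17, adjusted p = 0.029). The hippocampal line went from the lowest NSC values of the 3 lines to the highest astrocyte values.

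Ptgs2 and B3gnt5 fell in the traced lines, and their call in the hippocampal line depended on the processing. Ptgs2, the inducible cyclooxygenase, lay at 4.70, 4.16 and 3.63 in tdTomato, 4.87, 4.61 and 3.32 in EYFP and 4.47, 5.13 and 4.24 in hippocampal NSCs and at 2.32, 3.24 and 2.05 in tdTomato, 3.28, 2.52 and 2.34 in EYFP and 4.24, 3.71 and 3.73 in hippocampal astrocytes, and its change was -1.63, -1.56 and -0.72 (SE 0.408, adjusted p = 0.0015, 0.0022 and 0.12). The hippocampal change of Ptgs2 passed under quantile normalization (-1.06, adjusted p = 0.024) and in a fit to that line alone (-0.72, adjusted p = 0.032). B3gnt5, which starts the lacto-series of glycolipids, lay at 7.81, 7.47 and 7.64 in tdTomato, 6.60, 6.31 and 6.03 in EYFP and 2.98, 2.63 and 2.38 in hippocampal NSCs and at 4.09, 3.42 and 4.71 in tdTomato, 2.55, 3.01 and 2.71 in EYFP and 2.22, 2.23 and 2.16 in hippocampal astrocytes. It was strong in traced NSCs and below the filter level in all 6 hippocampal libraries. Its change was -3.56, -3.55 and -0.46 (SE 0.258, adjusted p = 5.8e-10, 6.9e-10 and 0.11), and the hippocampal value was -0.91 (adjusted p = 0.0039) under quantile normalization.

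Sphk1, which makes sphingosine-1-phosphate, lay between 5.79 and 6.59 in NSCs and between 5.70 and 6.23 in astrocytes, with a change of -0.56, -0.48 and 0.12 (SE 0.144, adjusted p = 0.0018, 0.0062 and 0.45). Its paralog Sphk2 did not pass in any line (-0.08, -0.06 and 0.09). Of the receptors for its product, S1pr1 rose by 3.31, 2.56 and 1.67, and S1pr2 fell by 1.25 and 1.17 in the traced lines with -0.11 in the hippocampal line. Tgm1, a transglutaminase, lay between 0.05 and 1.42, Ptx3, a soluble pattern recognition protein, between 0.13 and 2.18, and Slc10a6, a transporter of sulfated steroids, between -1.57 and -0.96, all under the filter level.

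Before differentiation the lines differed in fewer of these genes. In NSCs 10 members were higher and 3 lower in traced than in hippocampal cells, 13 of 27, and 31.9% of all genes differed, 17% being higher and 14.9% lower. The median difference of the members was 0.02, against 0.01 over all genes. All 13 were among the 19 members at the filter level in 3 or more NSC libraries. The other tested members lay mostly under that level in NSCs, where a difference could hardly show, and they enter the 27 and the median. The largest were B3gnt5 (4.31 ± 0.223, adjusted p = 5.4e-11), Tm4sf1 (2.01 ± 0.107, adjusted p = 7.6e-11) and S100a10 (1.41 ± 0.0624, adjusted p = 6e-12), all A2 genes and all higher in traced NSCs. B3gnt5 passed the filter only because of traced libraries, which leads it to that direction. Emp1 (-1.32), Gbp2 (-0.83) and H2-T23 (-0.45) were lower in traced NSCs. Fbln5 (1.38), Cd109 (0.89), Osmr (0.80), Cp (0.69), Cxcl10 (0.51), Sphk1 (0.44) and Iigp1 (0.39) were higher. The calls of Cxcl10, Iigp1 and H2-T23 (adjusted p = 0.037, 0.039 and 0.03) were lost without 5, 7 and 6 of the 9 NSC libraries, 1 at a time, with adjusted p of up to 0.22, 0.1 and 0.14, and under 4, 6 and 3 other settings (up to 0.076, 0.45 and 0.13). The Fbln5 call was lost without hippocampal NSC replicate 1 or 2 (0.077 and 0.057) and that of Sphk1 without hippocampal NSC replicate 3 (0.073).

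After differentiation the lines stood far apart. In astrocytes 20 members were lower and 2 higher in traced than in hippocampal cells, 22 of 27, and 59.7% of all genes differed, 31.9% being lower and 27.9% higher. The difference was at least 1 and lower in traced cells for 19 members and for 6.69% of all genes. The median was -2.03 over the members and -0.01 over all genes. Without the 3 members whose filter depended on the hippocampal astrocytes, 17 of 24 were lower and 2 higher, with a median of -1.78. Over all 31 members, with no filter, the 3 hippocampal astrocyte libraries lay above all 6 traced ones in 20, below all of them in 2 and among them in 9, and 25.9% of all genes tested had them above. The 3 hippocampal astrocyte libraries lay above each of the other 15 libraries in 19 of 31 members (9 pan, 6 A1 and 4 A2), against 15.3% of all genes tested.

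The largest differences between traced and hippocampal astrocytes were those of Aspg (-7.49 ± 0.194, adjusted p = 1.6e-15), Cd14 (-5.10 ± 0.187, adjusted p = 1.8e-13) and Ggta1 (-4.39 ± 0.162, adjusted p = 2e-13). Lcn2 (-3.94), Steap4 (-3.75), Serping1 (-3.56) and S1pr3 (-3.32) followed. Hspb1 and H2-T23 (both -2.96), Srgn (-2.75), Iigp1 (-2.57), Cxcl10 (-2.40), Gbp2 (-2.38) and Clcf1 (-2.03) lay between -3 and -2. Emp1 (-1.88), Timp1 (-1.67), Cd109 (-1.54), Ptgs2 (-1.27), Cd44 (-1.12) and Cp (-0.69) were smaller and passed. B3gnt5 (1.21 ± 0.223, adjusted p = 0.00015) and Tm4sf1 (0.51 ± 0.107, adjusted p = 0.00051) were the members that stayed higher in traced cells. For B3gnt5 the filter, passed through traced libraries only, leads to that direction. Osmr, Fbln5, Fkbp5, S100a10 and Sphk1 did not pass, and their 95% intervals were -0.455 to 0.398, -0.942 to 0.766, -0.4 to 0.0492, -0.24 to 0.0226 and -0.465 to 0.0599.

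**Figure D3:**
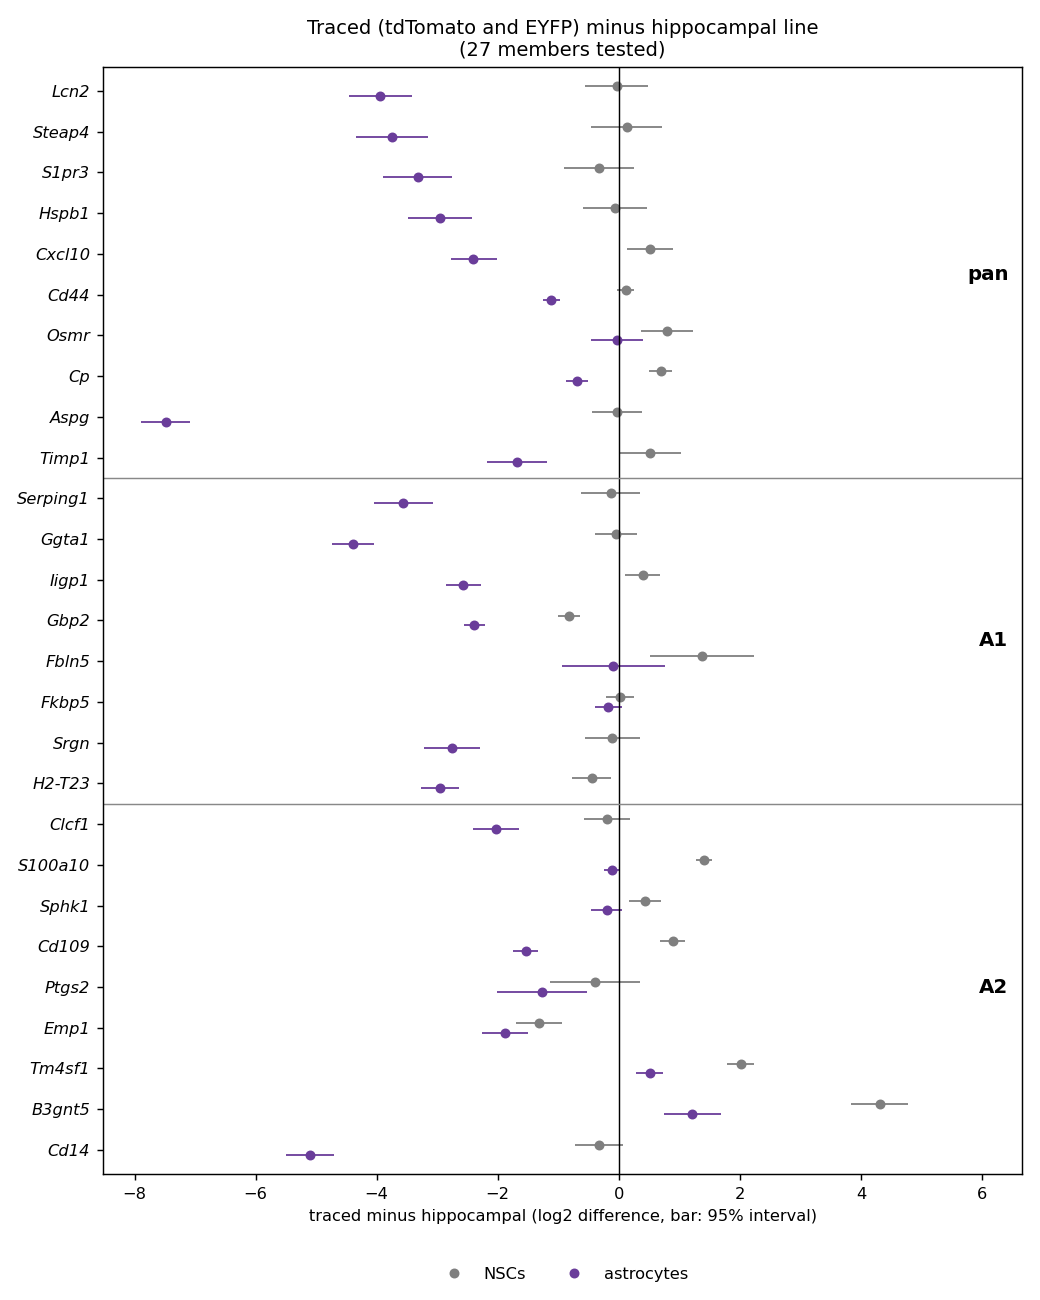
Difference between the mean of the tdTomato and EYFP lines and the hippocampal line (horizontal axis, log2) for the 27 members tested, in NSCs (grey) and in astrocytes (purple), with 95% intervals. Grey points of 13 members passed the test, 10 on the right (B3gnt5 and Tm4sf1 farthest) and 3 on the left (Emp1 farthest), while the purple points of 20 members lie to the left of 0 with intervals that exclude it.

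The change itself was lower (a smaller rise, a larger fall, or a value near or under 0 against a rise) in the traced lines for 24 of the 27 members, and for 25.9% of all genes, by an interaction test, with a median of -2.43 over the members and -0.03 over all genes. Without S1pr3, Aspg and Srgn, whose direction the filter fixed, it was lower for 21 of 24, with a median of -2.02. B3gnt5, which passed the filter only through traced libraries, is still among these 21. No member had a higher change in the traced lines, as 20.3% of all genes did in the same limma fit, and none had an unadjusted p under 0.05 in that direction. The other 3, Fkbp5 (-0.19 ± 0.151, adjusted p = 0.31), Emp1 (-0.56 ± 0.257, adjusted p = 0.085) and Ptgs2 (-0.87 ± 0.5, adjusted p = 0.17), did not pass. All 10 pan genes, 7 of 8 tested A1 genes and 7 of 9 tested A2 genes were among the 24, with medians of -2.90, -2.58 and -1.52 (-2.54 and -2.51 for pan and A1 genes without those 3). For Osmr (-0.83) the lower traced change came with higher traced NSCs and astrocytes whose difference did not pass, and it was lost without hippocampal NSC replicate 3 (adjusted p = 0.059) or hippocampal astrocyte replicate 1 (0.086). The Fbln5 call (-1.47, adjusted p = 0.045) was lost without any of 10 of the 18 libraries, with adjusted p from 0.052 to 0.12, and under 7 other settings (0.05 to 0.083). Without hippocampal astrocyte replicate 1, the highest library, 20 members had a lower change in the traced lines, and 20 differed between traced and hippocampal astrocytes, Aspg and Srgn being below the filter there.

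The tdTomato and EYFP lines, both traced, were compared as a check on how far 2 lines of the same tracer differ. In NSCs 5 members were higher and 4 lower in the tdTomato line, 9 of 27, and 31.4% of all genes differed. In astrocytes 4 were higher and 4 lower, 8 of 27, and 14.4% of all genes differed. Ggta1 was lower in tdTomato cells in both fates (-2.30 ± 0.187 in NSCs and -1.51 ± 0.187 in astrocytes, adjusted p = 1e-07 and 1.7e-05). So were Timp1 (-1.06 and -1.21) and Gbp2 (-0.65 and -0.51), and B3gnt5 (1.33 and 1.32) and Iigp1 (0.52 and 1.32) were higher in both. Clcf1 was lower in tdTomato astrocytes only, by 1.50 (adjusted p = 6e-05), and its change differed between the lines (-1.45 ± 0.294, adjusted p = 0.0034). Cp (0.53) and H2-T23 (0.64) were higher in tdTomato astrocytes, the latter call being lost without tdTomato astrocyte replicate 1 or EYFP astrocyte replicate 3 (adjusted p = 0.07 and 0.076). In NSCs, Cd44 (0.29), Fkbp5 (0.43) and S100a10 (0.36) were higher and Emp1 (-0.69) lower in the tdTomato line. Those of Fkbp5 and Emp1 were lost without tdTomato NSC replicate 3 or EYFP NSC replicate 1 (0.05 to 0.071), and that of Iigp1 without either of these or tdTomato NSC replicate 2 (0.051 to 0.096), and under 2 other settings (0.084 and 0.16).

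The change differed between the 2 traced lines for 6 members, and for 13.3% of all genes. It was higher in the tdTomato line for Iigp1 (0.81) and Emp1 (1.02) and lower for Clcf1 (-1.45), Cd44 (-0.50), Fkbp5 (-0.54) and S100a10 (-0.36). Without tdTomato NSC replicate 2 or EYFP NSC replicate 2 the count was 2 and 3, with 4 and 3 of these 6 calls lost, and 3 were also lost without tdTomato astrocyte replicate 2, where the count was 4. Single calls were lost without any of 14 of the 18 libraries for Fkbp5 (adjusted p up to 0.13), 5 for S100a10 (up to 0.071), 5 for Emp1 (up to 0.078) and 4 for Iigp1 (up to 0.074), and under 4, 2 and 2 other settings for Fkbp5, S100a10 and Emp1 (up to 0.086, 0.054 and 0.054).

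Taken as plain means over each class, the libraries of a group lay close together. The mean of the 10 pan genes was 5.59 to 5.85 in tdTomato, 5.71 to 6.03 in EYFP and 8.33 to 8.89 in hippocampal astrocytes, and 4.05 to 4.49 over all NSC libraries. For the 9 A1 genes it was 5.24 to 5.43, 5.16 to 5.29 and 7.23 to 7.55, with 4.03 to 4.51 in NSCs. For the 12 A2 genes it was 5.25 to 5.43, 5.09 to 5.31 and 6.01 to 6.30, with 4.79 to 5.08 in traced and 4.33 to 4.41 in hippocampal NSCs. Hippocampal astrocytes did not overlap with traced astrocytes in any of the 3 classes. These means have no test, since the members were chosen as a list.

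**Figure D4:**
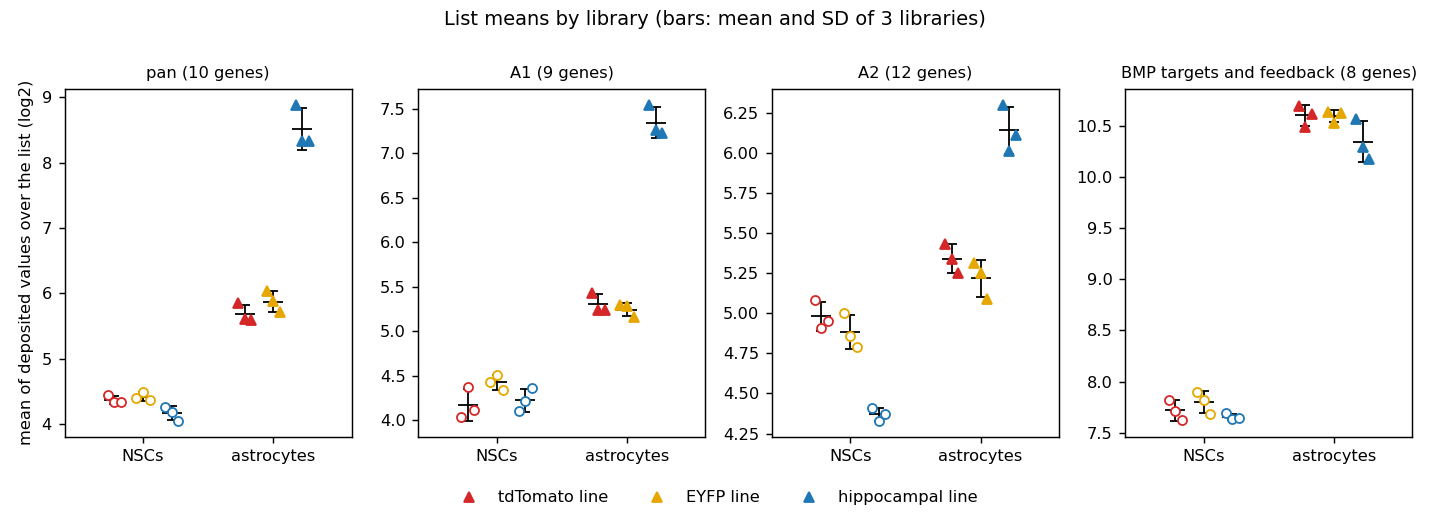
Mean of the deposited log2 values (vertical axis, a scale for each panel) over the pan, A1 and A2 genes and over 8 BMP target and feedback genes, with a symbol per library. Circles are NSC and triangles astrocyte libraries of the tdTomato (red), EYFP (yellow) and hippocampal line (blue), and bars give the mean and SD of 3 libraries. Blue triangles stand above the others in the first 3 panels and reach no higher than 10.57 in the BMP panel, where the traced astrocytes lie between 10.49 and 10.70.

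Known targets of BMP signals rose in every line. All 8 BMP target and feedback genes (Id1 to Id4, Smad6, Smad7, Smad9 and Bambi) rose in each of the 3 lines, with medians of 2.90, 2.75 and 2.79 in the tdTomato, EYFP and hippocampal line. Id4 rose by 4.92, 4.03 and 4.05, Smad9 by 3.54, 3.46 and 3.77, and Smad6, an inhibitor of BMP signals, by 3.92, 3.66 and 3.06. Against the hippocampal change, the traced change was higher for 4 of the 8, lower for 2 and did not pass for 2. In astrocytes 3 of the 8 were higher and 1 lower in traced cells. For this list and those that follow, the shares over all genes were 39.9%, 38.2% and 39% that rose and 38.5%, 37% and 37.3% that fell in the tdTomato, EYFP and hippocampal line. Of all genes, 31.9% were lower and 27.9% higher in traced astrocytes, 14.9% lower and 17% higher in traced NSCs, and 25.9% had a lower and 20.3% a higher change in the traced lines.

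The remaining genes of the published reactive panel mostly rose as well. Of 6, Ugt1a1 was not tested, and Psmb8 reached the filter level in the hippocampal astrocytes alone, so that its direction is fixed and it is left out of the counts. The other 4 rose in each line. Gfap, the astrocyte filament protein, rose by 6.08, 6.37 and 7.13, and Serpina3n, a secreted protease inhibitor, by 3.95, 4.64 and 6.87. H2-D1, a class I molecule, rose by 0.90, 0.55 and 3.16. All 4 were lower in traced than in hippocampal astrocytes and had a lower change, with medians of -1.70 and -1.98.

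Genes of the interferon response were mostly lower in traced than in hippocampal astrocytes. Of 12 listed and tested, 6 rose and 3 fell in the tdTomato line, 7 rose and 4 fell in the EYFP line, and 11 rose and 1 fell in the hippocampal line, with medians of 0.26, 0.32 and 0.96. In astrocytes 11 of the 12 were lower in traced cells, against 31.9% of all genes, with a median of -1.10, and Ifngr1, a chain of the interferon gamma receptor, was higher (0.22). Igtp, an immunity-related GTPase of the Iigp1 family, rose by 1.93, 1.87 and 3.71, and Irf9 by 1.32, 0.95 and 2.27. In NSCs 5 of the 12 were lower and 1 higher in traced cells.

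The gp130 and STAT3 list was split. Of 15 genes, 12 were tested, and 8, 6 and 8 rose and 1, 3 and 3 fell in the tdTomato, EYFP and hippocampal line, with medians of 0.83, 0.62 and 1.06. The ligand Lif had means of 4.41, 4.60 and 4.60 in NSCs and lower ones of 4.12, 3.79 and 3.08 in astrocytes. The ligands Osm, Il6 and Il11 were below the filter level, and Osm, the cytokine that Osmr binds, lay near the bottom of the scale in all groups. Il6st, gp130 itself, rose by 2.25, 2.25 and 2.32, Cntf by 2.70, 2.54 and 4.47, and Il6ra by 2.05, 2.75 and 4.63. In astrocytes 4 were lower and 3 higher in traced cells and 5 did not pass.

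In the TNF, interleukin-1 and NF-kB list, 13 of 18 genes were tested, and 8, 8 and 9 rose and 4, 4 and 3 fell in the tdTomato, EYFP and hippocampal line, with medians of 0.12, 0.12 and 0.56. Tnf and Il1a lay near the bottom of the scale in every group, and Il1b, also under the filter level, was highest in tdTomato astrocytes with a mean of 2.71. Il1r1, the interleukin-1 receptor, rose by 3.75, 3.38 and 5.07, the adaptor Myd88 rose by 0.92, 1.11 and 1.58, and Nfkbiz, an inducible regulator of NF-kB, fell by 1.32, 2.22 and 1.21. In astrocytes 9 of the 13 were lower and 2 higher in traced cells, with a median of -0.24.

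Among 24 binding partners, receptors and paralogs of the members, 20 were tested, and 12, 11 and 13 rose and 3, 4 and 4 fell in the tdTomato, EYFP and hippocampal line. Hspb8, a paralog of Hspb1, rose in each line (6.13, 6.35 and 6.44), and the difference between the traced and hippocampal change did not pass (-0.21 ± 0.164, adjusted p = 0.33), where that of Hspb1 was -2.89. C1s1, a complement protease that the Serping1 product inhibits, rose by 3.15, 2.87 and 4.23. Timp2, a paralog of Timp1, rose by 2.66, 2.81 and 3.18, and Timp4 rose in the traced lines (1.99 and 1.41) and fell by 1.10 in the hippocampal line. In astrocytes 10 of the 20 were lower and 6 higher in traced cells, with a median of -0.21. These counts hold Tlr4, which reached the filter level in the hippocampal astrocytes alone. Its rise in that line and its lower value in traced astrocytes were therefore fixed by the filter.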

How the data were processed

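RNA of 18 libraries (3 lines, 2 fates, 3 libraries each) was sequenced as poly(A) RNA. The submitters' processing notes name Trimmomatic 0.36, STAR 2.5.2, RSEM 1.3.0, GRCm38, DESeq2 1.18.1 and R 3.4.3. The study's methods describe mapping and gene counting with STAR and RSEM, and differ from the labels on the RSEM version, the library kit and the read length. What the authors deposited is a table of log2 values, 27997 genes by 18 libraries, from -2.15 to 18.86 with 29.4% below 0. The transform is not given in the sources used here. They look like a regularized log, with weak genes shrunk, so no pseudocount was added, no count test was possible and the depth of each library is unknown.

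Genes at 10 or more on the linear scale (3.32 in log2) in at least 3 libraries were tested with limma 3.58.1 in R 4.3.3, as 1 fit over 6 groups with a trend in the variance and 12 residual degrees of freedom, with Benjamini-Hochberg adjustment over 15448 genes and a threshold of 0.05. Tables and promoter searches used Python 3.11.15, pandas 2.3.3 and numpy 2.4.6. The fit was tested on simulated data. Groups and replicate numbers came from the labels. Alternatives were other filters, scalings, pseudocounts, variance models and sample sets, a replicate block, and each library left out. All 31 members were named, with values per library for those that changed or differed by at least 1. The members and lists were chosen with earlier results of these data known. Comparisons between lines share libraries with each other and with the changes within lines. Clec9a, Tnfrsf1b, Cxcr3, Cx3cr1, Tyrobp and Cldn5 were not analysed here.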

Additional observations from a re-analysis of the deposited data

Results flagged for a closer look

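The change from NSCs to astrocytes differed between the traced and the hippocampal lines for 24 members, by limma's interaction test with p-values adjusted over 15448 genes. The values are the mean change of the tdTomato and EYFP lines minus the change of the hippocampal line on the log2 scale. They were Aspg (-7.45), Cd14 (-4.77), Ggta1 (-4.35), Lcn2 (-3.91), Steap4 (-3.88), Serping1 (-3.42), B3gnt5 (-3.10) and S1pr3 (-3.00) for the 8 members with the largest difference. The next 8 were Iigp1 (-2.96), Cxcl10 (-2.91), Hspb1 (-2.89), Srgn (-2.65), H2-T23 (-2.51), Cd109 (-2.43), Timp1 (-2.19) and Clcf1 (-1.84). The last 8 were Gbp2 (-1.56), S100a10 (-1.52), Tm4sf1 (-1.50), Fbln5 (-1.47), Cp (-1.38), Cd44 (-1.23), Osmr (-0.83) and Sphk1 (-0.64). The adjusted p ranged from 2.1e-12 for Aspg to 0.045 for Fbln5. With 3 libraries a group, no search for single outlying libraries was made.

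The change also differed between the tdTomato and the EYFP line for 6 members, by the same test. The tdTomato minus the EYFP change was -1.45 for Clcf1, -0.54 for Fkbp5, -0.50 for Cd44, -0.36 for S100a10, 0.81 for Iigp1 and 1.02 for Emp1. The adjusted p ranged from 0.0034 for Clcf1 to 0.047 for Fkbp5.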

How the results depend on the processing

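Of the single-gene calls, none reversed under any alternative run. The counts of kept and lost calls are of pairs of a value and a setting, so 1 value can enter several times. With all libraries 1463 pairs kept their call and 44 lost it, and with a library left out 2602 kept it and 86 lost it. Of the pairs whose value was not called as reported, 10 passed with all libraries, some of them sharing a value, and 2 with a library left out. These 2 were traced minus hippocampal astrocytes for Fkbp5 (-0.24, adjusted p = 0.039, without EYFP astrocyte replicate 1) and S100a10 (-0.20, adjusted p = 0.0067, without hippocampal astrocyte replicate 3). The counts of members called stayed within 1.5 times under every alternative, except the members whose change differed between the traced lines, 6 as reported, 3 with no filter on low values and 3 with limma without a trend. With 1 library left out, the counts ranged from 20 to 22 in the tdTomato, 21 to 24 in the EYFP and 21 to 23 in the hippocampal line and 24 to 27 for the mean change. They ranged from 9 to 13 and 20 to 23 between traced and hippocampal NSCs and astrocytes, 6 to 10 and 7 to 9 between tdTomato and EYFP NSCs and astrocytes, 20 to 25 for the traced against the hippocampal change and 2 to 6 for the tdTomato against the EYFP change. Over all genes, 4932 differed between traced and hippocampal NSCs and 3144 with the traced libraries as 1 group, and the change differed between the traced lines for 2060 genes and for 1317 without tdTomato NSC replicate 3.

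Values that did not pass turned sign as follows, and the cause was not tested. Under median centring, traced minus hippocampal became -0.00919 for Fkbp5 in NSCs and 0.01531 for Osmr in astrocytes. Under quantile normalization the change became -0.3248 and -0.05578 for Timp1 in the tdTomato and EYFP line, -0.07935 for Ggta1 in the EYFP line, and -0.01805 for Fbln5 and -0.1785 for Sphk1 in the hippocampal line, and traced minus hippocampal became 0.05152 for Lcn2, 0.00253 for Hspb1 and 0.06895 for Aspg in NSCs and 0.006928 for Osmr in astrocytes. With a pseudocount of 10 it became 0.078 for Ggta1 in NSCs. With 1 library left out, traced minus hippocampal ranged from -0.184 to 0.0852 for Hspb1, -0.01286 to 0.07246 for Fkbp5 and -0.111 to 0.007082 for Ggta1 in NSCs, and from -0.1647 to 0.1209 for Osmr and -0.2513 to 0.1182 for Fbln5 in astrocytes, and the tdTomato change from -0.1663 to 0.3169 for Timp1 and -0.3614 to 0.07681 for Cd14.

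In their deviations from the group means, same-numbered libraries of 1 fate correlated by 0.0117 to 0.313 (mean 0.106). Differently numbered libraries of 1 fate correlated by -0.345 to 0.12 (mean -0.0532). Same-numbered libraries of 1 line correlated by -0.0765 to 0.0338, and the numbers were not taken as pairs between fates. Whether a number marks something shared by the lines within a fate was not tested. With a replicate block, 22, 23 and 24 members were called in the tdTomato, EYFP and hippocampal line, 27 for the mean change, 13 and 22 between traced and hippocampal NSCs and astrocytes, 9 and 8 between the traced lines, and 24 and 7 for the differences of change. With the block the Cd14 fall in the EYFP line was lost (adjusted p = 0.053) and the Ptgs2 fall in the hippocampal line passed (0.045). Median centring shifted libraries by -0.0498 to 0.0507. The filter of 100 could not be fitted for 43 gene values and the fit to only the libraries compared for 19, and Aspg and Srgn could not be tested without any 1 hippocampal astrocyte library. The unknown depth and the shrinkage limit what weak members can show.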
